A study of Mus musculus with 5 samples.

Results

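Of 67237 genomic regions with PU.1 signal in mouse dendritic cells, 4654 (6.92%) lay in gene deserts, taken here as autosomal sequence more than 100 kb from the span of every protein-coding gene. Among the deposited windows, members were found by position and an input limit. Windows of at least 1000 input counts were left out, and those with gaps of up to 100 bp were merged. Distances were measured to 21887 protein-coding genes of RefSeq on GRCm38, whose coordinates are those of mm10. No PU.1 value took part in this step. The deposited windows themselves had counts of at least 33 over the 5 libraries, PU.1 libraries included. PU.1 signal therefore bore on which windows could become members. Chromatin immunoprecipitation and sequencing of PU.1 was done on dendritic cells of Flt3L cultures, of the conventional (cDC) and the plasmacytoid (pDC) type, with 2 biological replicates of each, both cell types carrying the strain label C56BL/6 and no other treatment or allele. The antibody was T-20, and the 1 input library was unprecipitated DNA of cDCs, so that pDCs had no input of their own. Cells made in culture need not match those of a mouse. No RNA was measured, so the labelled cell types could not be checked against marker expression. pDCs were compared with cDCs to find sites with unequal PU.1 signal. Log2 folds are pDC minus cDC with the standard error (SE), n = 2 libraries per cell type. Replicates are called biological in the series' design, but the number of mice or cultures is not stated, and p-values measure the spread between these libraries.

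PU.1 is an ETS-family transcription factor, encoded by Spi1, that binds purine-rich sites around a GGAA core and is needed for the development of myeloid cells and dendritic cells. Gene deserts are long stretches without protein-coding genes. They often lie beside genes for transcription factors and can hold enhancers that act on a gene over a great distance. cDCs present antigen to T cells and depend on Id2, an inhibitor of E proteins, and pDCs make type I interferon and depend on the E protein Tcf4. The nearest gene is used below only as a name for a place, since these data do not tie a region to the gene it may act on.

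Of the 4654 desert regions, 34 had their summit, the window with the highest mean signal over the 4 PU.1 libraries, inside the promoter of a long non-coding RNA (lncRNA), taken from RefSeq (GRCm38.p6) as 250 bases before to 50 after the gene's start. The 7 with the most PU.1 signal and the 3 called as differing between cell types make up 8 sequences, shown because the bound stretch itself can be read. Each is the part of the promoter within 75 bases of the summit, 5′ to 3′ on the gene's strand, with matches to GAGGAAGT or GGAAGT on either strand in capitals.
Gm26947, chr10:60931926-60932039, plus strand: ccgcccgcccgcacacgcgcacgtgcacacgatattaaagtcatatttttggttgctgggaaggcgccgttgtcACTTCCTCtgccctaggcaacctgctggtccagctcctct
Gm40930, chr13:44504526-44504677, plus strand: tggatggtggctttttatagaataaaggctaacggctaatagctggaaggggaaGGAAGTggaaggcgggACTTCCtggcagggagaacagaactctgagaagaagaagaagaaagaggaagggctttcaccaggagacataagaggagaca
5430437J10Rik, chr15:5496076-5496235, plus strand: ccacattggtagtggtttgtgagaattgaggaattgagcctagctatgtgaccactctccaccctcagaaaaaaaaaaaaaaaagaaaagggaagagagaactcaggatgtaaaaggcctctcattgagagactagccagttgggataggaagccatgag
Gm12159, chr11:45116879-45117035, minus strand: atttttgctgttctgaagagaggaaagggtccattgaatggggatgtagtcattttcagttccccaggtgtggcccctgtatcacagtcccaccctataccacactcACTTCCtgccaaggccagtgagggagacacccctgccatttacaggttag
Gm46343, chr12:25303576-25303735, plus strand: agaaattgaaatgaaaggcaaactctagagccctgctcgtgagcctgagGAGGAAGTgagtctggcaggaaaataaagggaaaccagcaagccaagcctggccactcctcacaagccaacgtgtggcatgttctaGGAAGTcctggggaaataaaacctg
Morrbid, chr2:128429302-128429435, minus strand: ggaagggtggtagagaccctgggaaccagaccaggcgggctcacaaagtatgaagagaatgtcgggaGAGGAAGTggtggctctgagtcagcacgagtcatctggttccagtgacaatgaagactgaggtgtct
Gm31828, chr4:93481476-93481635, minus strand: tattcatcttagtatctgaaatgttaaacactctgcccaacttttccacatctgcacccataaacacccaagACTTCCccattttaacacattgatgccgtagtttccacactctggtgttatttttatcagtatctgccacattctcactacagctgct
Gm30779, chr6:26766876-26767035, minus strand: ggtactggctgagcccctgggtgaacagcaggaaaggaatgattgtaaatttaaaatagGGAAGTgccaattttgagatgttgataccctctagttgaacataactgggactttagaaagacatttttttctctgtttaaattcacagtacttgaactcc

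Of the 8 stretches, only that of 5430437J10Rik held neither motif, and that of Gm40930 held GGAAGT on both strands. GAGGAAGT is a common form of the PU.1 site and contains GGAAGT, so each match to the longer motif counts for both. Over the whole 300-base promoters, GAGGAAGT was found in 13 of the 34 (38.2%), against 73 of 504 lncRNA promoters that held a summit outside deserts (14.5%) and 1052 of all 32851 promoters (3.2%). GGAAGT was found in 22 (64.7%), 277 (55.0%) and 7809 (23.8%) of the same sets. GGAANNGAA, a composite of ETS and interferon regulatory factor sites, was in 5 (14.7%), 60 (11.9%) and 8.24% of these sets. The AP-1 motif TGAGTCA was in 2 (5.88%), 32 (6.35%) and 5.2%. These are matches of letters, with no test. Sequence of the remaining desert regions was not analysed here.

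The promoter of Gm26947 held the strongest of these regions. Its summit had 175 and 218 reads in cDC replicates 1 and 2, 251 and 140 in pDC replicates 1 and 2, and 3 in the input. The libraries are of unequal size, and after scaling its log2 fold was 0.66 ± 0.22 (SE; edgeR adjusted p = 0.0379). The promoter of Morrbid, a lncRNA known from the control of myeloid cell lifespan, had 95 and 105 reads in cDCs and 59 and 53 in pDCs, giving a log2 fold of -0.15 ± 0.25 (edgeR adjusted p = 0.749). At the promoter of Gm31828 there were 28 and 20 reads in cDCs and 118 and 53 in the shallower pDC libraries, a log2 fold of 2.48 ± 0.33 (edgeR adjusted p = 3.75e-05). At that of Gm30779 there were 22 and 34 reads in cDCs and 78 and 50 in pDCs, a log2 fold of 1.86 ± 0.31 (edgeR adjusted p = 0.000299). These 3 called promoters were higher in pDCs, 30 were not called and 1 was not tested. Over all regions 16.7% were called, and nothing is read from the direction of 3.

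Desert regions were scattered over 796 gaps between neighbouring protein-coding genes, and 139 gaps with at least 10 regions held 2671 of them. They lay between 100.1 and 1956 kb from the nearest protein-coding gene, with a median of 187 kb. Their median width was 160 bp, against 210 bp for autosomal regions outside deserts. A lncRNA span held 1039 of them (22.3%). The share of a chromosome's regions that lay in deserts went from 2.89% on chromosome 7 to 12.7% on chromosome 13. Just inside the limit were a region 100.05 kb from Ets2 and another 100.06 kb from Smim20, and just outside were regions 100.0 kb from Rpl14 and 99.97 kb from Xylt1. The Smim20 region had 77.0 and 60.6 CPM (the summit count scaled to the library's normalised total over all summits) in cDCs and 89.3 and 62.2 in pDCs, and the Rpl14 region 57.1 and 53.8 in cDCs and 53.8 and 50.6 in pDCs. The cell types overlapped in both.

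PU.1 signal in deserts was a little weaker than elsewhere. The mean summit signal over the 4 libraries had a median of 7.83 CPM in deserts and 8.45 CPM outside them. Of the strongest 1% of all regions, those of at least 87.5 CPM, 41 were in deserts, which is 0.881% of the members. Of the counts outside the windows of at least 1000 input counts, desert regions took 6.30% and 6.25% in the cDC libraries, 6.49% and 6.78% in the pDC libraries, and 10.8% in the input. The last value rests on 51 members with at least 10 input counts. Without them the 4 PU.1 libraries had shares of 5.98%, 5.93%, 5.94% and 6.23%, and the input 5.68%.

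The PU.1 libraries had totals of 6896416 to 11388554 counts over all windows, and the input had 2776490. The median desert summit held 19 reads in each cDC library, 13 and 12 in pDC replicates 1 and 2, and 2 in the input. The pDC libraries differed from each other more than the cDC libraries did. On desert summits the log2 CPM of the cDC pair had a Pearson's r of 0.898 and those of the pDC pair 0.823. With the cDC libraries, pDC replicate 2 had an r of 0.656 and 0.703 and pDC replicate 1 of 0.554 and 0.571. Which of the pDC libraries is the less typical cannot be told from these values. These values describe 4148 regions that share libraries and are not independent. The windows left out for at least 1000 input counts held 1239815 of the counts of pDC replicate 2 and 817060 of those of pDC replicate 1. For many of the results below, though not all, values without pDC replicate 1 or pDC replicate 2 are therefore given as well.

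Above input, 1860 of 4438 desert regions passed in at least 1 cell type (edgeR, adjusted p below 0.05 and at least 2-fold), 41.9% against 46.4% of all regions. cDCs had 1528, pDCs 1462 and both 1130. The input has no replicate, and its spread was taken from the other libraries. The count depends on the scale given to the input: with library sizes taken outside the windows of at least 1000 input counts, only 183 passed.

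PU.1 differed between cell types at 831 of 4148 tested desert regions (20.0%), of which 509 were higher in pDCs and 322 in cDCs. Over all 60460 regions tested, 16.7% were called, 9.33% higher in pDCs and 7.41% in cDCs, and in deserts these shares were 12.3% and 7.76%. The test was edgeR's quasi-likelihood test on summit counts, with adjustment over all regions at 0.05. The other 3317 were not called, and 506 members held too few reads to test. Called regions had a median log2 fold of 1.75 when higher in pDCs and -1.68 when higher in cDCs, and 172 and 94 of them passed 4-fold. Over all tested members the median log2 fold was 0.06, against 0.01 over all regions. Both pDC libraries lay above both cDC libraries in 1326 members (32.0%, against 28.5% of all regions) and below both in 1150 (27.7%, against 28.8%).

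The direction of the surplus depends on the scale. With library sizes taken from the windows of at least 1000 input counts, the median log2 fold moved to -0.51 in deserts and -0.55 over all regions, and 68 desert regions were called higher in pDCs and 315 in cDCs. Single libraries moved the counts as well. They were 195 and 96 without cDC replicate 1 and 217 and 119 without cDC replicate 2. Leaving out pDC replicate 1 gave 341 and 178. Leaving out pDC replicate 2 gave 674 and 588. In all 4 of these fits 183 regions were called, 123 higher in pDCs and 60 in cDCs.

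**Figure D1:**
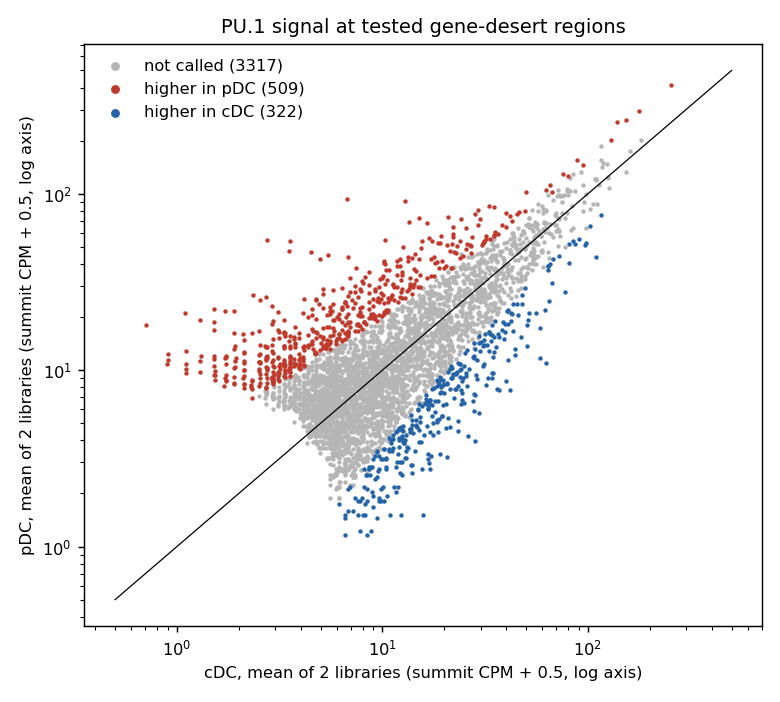
PU.1 signal at the 4148 tested desert regions, as the mean summit CPM plus 0.5 of the 2 cDC libraries (horizontal, log axis) and of the 2 pDC libraries (vertical, log axis). Each point is a region, the line marks equal signal, and 509 regions called higher in pDCs lie above it and 322 called higher in cDCs below it.

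The farthest regions were seldom called for cDCs. Between 100 and 200 kb from a gene, 267 of 2269 tested regions were higher in pDCs (11.8%) and 189 in cDCs (8.33%). Between 200 and 500 kb these were 197 and 121 of 1510 (13.0% and 8.01%). Beyond 500 kb they were 45 and 12 of 369 (12.2% and 3.25%), against 9.22% and 7.46% of 55004 autosomal regions outside deserts. The median log2 fold was 0.02, 0.09 and 0.19 in the 3 classes. The difference between classes was not tested. Median signal was 8.25 CPM in the first class and 6.77 CPM in the last. With under 10 input counts, 358 regions beyond 500 kb were tested, and 41 and 12 were called. The 78 members within 100 kb of immunoglobulin or T cell receptor segments lay at a median of 603 kb from a protein-coding gene. Many of these 78 thus belong to the last class, and its calls were not counted without them. Beyond 500 kb the calls were 54 and 28 without pDC replicate 2 and 37 and 10 without pDC replicate 1. They were 21 and 5 without cDC replicate 1 and 19 and 4 without cDC replicate 2. On the scale of the windows with at least 1000 input counts they were 11 and 15.

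**Figure D2:**
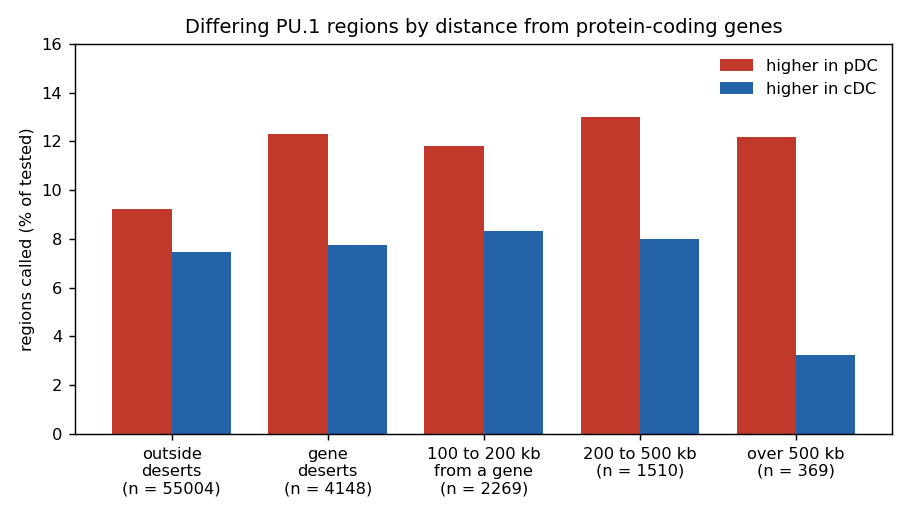
Share of tested regions (vertical, percent) called higher in pDCs (red) or in cDCs (blue), outside deserts, in all deserts and in 3 classes of distance from the nearest protein-coding gene. The cDC share is 8.33% between 100 and 200 kb and 3.25% beyond 500 kb, while the pDC share lies between 11.8% and 13.0%.

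None of the 5 tested regions farthest from any protein-coding gene was called by edgeR, and none had an unadjusted p below 0.05. The farthest, chr1:48881451-48881710, lay 1956 kb from Slc39a10 and had 7.04 and 6.73 CPM in cDCs and 7.69 and 17.4 in pDCs. Its input count was 40, and it overlapped the pseudogene Gm8357. Without pDC replicate 1 its log2 fold was 1.34, past the threshold (edgeR adjusted p = 0.0394). Another, chr3:48100901-48101210, 1642 kb from Pcdh18, a protocadherin gene, had 17.0 and 19.4 CPM in cDCs and 13.6 and 10.1 in pDCs and was above input. Its cell types did not overlap, but its log2 fold of -0.60 ± 0.35 did not pass (edgeR adjusted p = 0.269).

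Several of the regions with the most PU.1 reads were also high in the input. chr14:19416551-19417310 had 289 and 218 CPM in cDCs, 283 and 539 in pDCs and 938 reads in the input, and chr2:98663601-98664210 had 185 and 166 CPM in cDCs, 207 and 380 in pDCs and 666 input reads. Neither was above input. Both flank the windows that were left out for their input counts, and pDC replicate 2 was the highest library in both. Both were called higher in pDCs by edgeR, and neither was called by DESeq2. The log2 fold of the chr14 region was 0.69, but 0.16 without pDC replicate 2 and 1.10 without pDC replicate 1. chr17:39842901-39848960, 6060 bp wide, overlapped Rn18s-rs5, a copy of ribosomal RNA sequence, and had 135 input reads. Among members with at least 10 input counts, 13 of 36 tested were called (36.1%, against 16.7% of all regions), all higher in pDCs. The part of input signal in these calls was not tested. A fit without all regions of at least 10 input counts, an alternative added after seeing the data, gave 499 and 321 calls.

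Other regions with high PU.1 signal had almost no input. chr12:25315951-25316360, 220 kb from Id2, had 1 input read, 156 and 163 CPM in cDCs and 192 and 156 in pDCs, which overlapped, and the log2 fold was 0.13 ± 0.19 (edgeR adjusted p = 0.71). chr8:126755651-126756060, 162 kb from Irf2bp2, a gene for a transcriptional corepressor, had 130 and 128 CPM in cDCs and 236 and 166 in pDCs. Its log2 fold of 0.64 ± 0.20 passed narrowly (edgeR adjusted p = 0.0288) and did not pass when cDC replicate 1, cDC replicate 2 or pDC replicate 1 was left out (adjusted p = 0.344, 0.351 and 0.125), or by DESeq2 (adjusted p = 0.107).

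Among called regions with a mean summit count of at least 30 and no overlap between cell types, the largest difference towards pDCs was at chr6:95334901-95335210, 138 kb from Suclg2, which encodes a subunit of succinyl-CoA ligase. It had 2.90 and 1.58 CPM in cDC replicates 1 and 2 and 64.5 and 44.1 in pDC replicates 1 and 2. PU.1 there was near the lowest levels in cDCs and high in both pDC libraries, a log2 fold of 4.58 ± 0.40 (edgeR adjusted p = 4.75e-07), between 4.18 and 5.03 when 1 library was left out.

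Next was chr13:83020901-83021160, 483 kb from Mef2c, which encodes a MADS-box transcription factor of lymphoid and myeloid cells. It had 2.90 and 3.17 CPM in cDCs and 66.8 and 39.8 in pDCs, a log2 fold of 4.12 ± 0.38 (edgeR adjusted p = 1.09e-06), between 3.70 and 4.43 with 1 library left out. In the same gap between Cetn3 and Mef2c, 5 of 13 tested regions were called and all 5 were higher in pDCs, with 1 region higher in cDCs at an unadjusted p below 0.05. DESeq2 called 2, both higher in pDCs. Of all tested desert regions 12.3% were called higher in pDCs by edgeR. The calls were 2 without either cDC replicate and 3 without pDC replicate 1.

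chr4:53269901-53270160 lay in the lncRNA Mexis, 110 kb from Abca1, the cholesterol exporter gene on which Mexis is known to act in macrophages. It had 1.66 and 4.35 CPM in cDCs and 61.5 and 32.5 in pDCs, a log2 fold of 3.94 ± 0.43 (edgeR adjusted p = 4.67e-06), between 3.41 and 4.76 with 1 library left out. chr4:54714651-54715310, 229 kb from the zinc finger gene Zfp462, had 3.73 and 8.71 CPM in cDCs and 111 and 74.5 in pDCs, a log2 fold of 3.88 ± 0.33 (edgeR adjusted p = 4.05e-07), between 3.40 and 4.59. The cell types did not overlap in either, as the rule for naming requires. The other 4 of the 8 largest under these limits lay near Tcte2, Gm44812, Fhit, a dinucleoside hydrolase gene, and Camk1g, a calmodulin-dependent kinase gene, with log2 folds of 3.52, 3.23, 3.18 and 2.88. That near Tcte2 rested on unequal cDC libraries of 0.828 and 7.12 CPM, was 2.69 without cDC replicate 1 and 5.68 without cDC replicate 2, and did not pass by DESeq2 (adjusted p = 0.0687).

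Under the same limits, the largest difference towards cDCs was at chr1:43327201-43327460, 118 kb from Nck2, an adaptor protein gene, with 29.4 and 26.1 CPM in cDCs and 1.18 and 5.79 in pDCs. Its log2 fold of -3.06 ± 0.47 (edgeR adjusted p = 0.000144) was -4.49 without pDC replicate 2 and -2.24 without pDC replicate 1. chr1:43321401-43321810, in the same gap on the side of Fhl2, a LIM-domain protein gene, had 71.2 and 53.0 CPM in cDCs and 2.96 and 18.1 in pDCs. Its log2 fold of -2.64 ± 0.39 (edgeR adjusted p = 0.000117) was -4.37 and -1.77 in the same order, and it did not pass by DESeq2 (adjusted p = 0.156). In all 8 of the largest under these limits, pDC replicate 2 lay above pDC replicate 1, and both lay below the cDC libraries by the rule for naming. In all 8 towards pDCs, pDC replicate 2 lay below pDC replicate 1, so it was nearer to the cDC libraries in both directions.

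The other 5 outside the Bcl6 gap lay near Lratd2, Parm1, Ttll7, a tubulin-modifying enzyme gene, Sgk1, a serine/threonine kinase gene, and Gsdmc, a gasdermin gene. Their log2 folds were -2.56, -2.53, -2.53, -2.45 and -2.37. Without pDC replicate 2 they were -3.77, -3.99, -2.93, -4.28 and -2.93, and without pDC replicate 1 they were -1.81, -1.72, -2.15, -1.56 and -1.90. The Sgk1 region, with 53.8 and 62.5 CPM in cDCs and 2.96 and 19.5 in pDCs, did not pass by DESeq2 (adjusted p = 0.224).

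**Figure D3:**
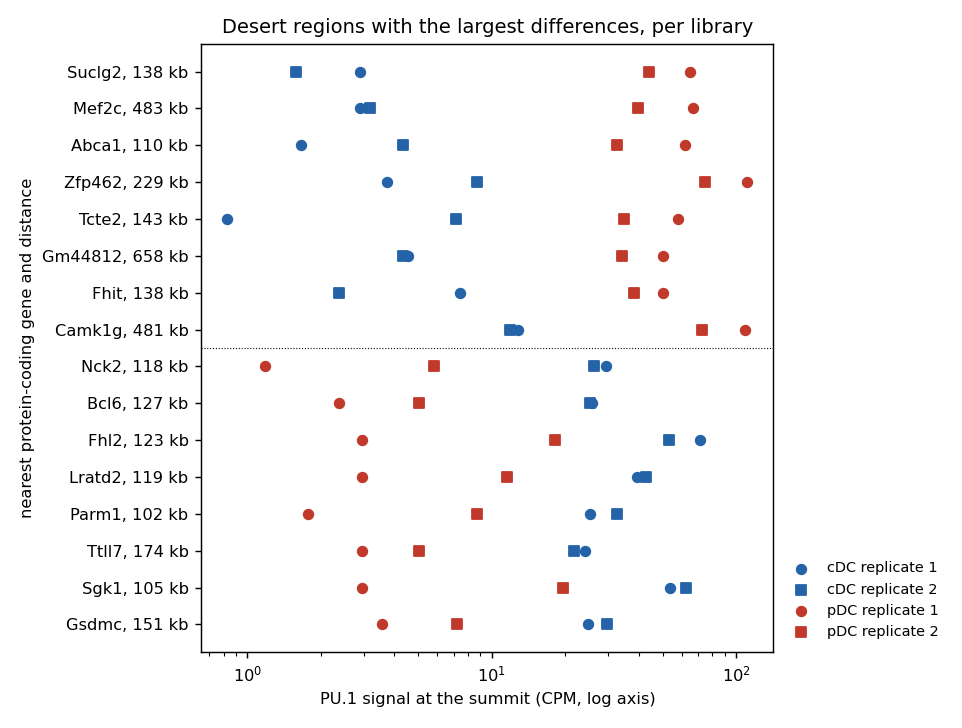
Summit signal (horizontal, CPM on a log axis) in each of the 4 PU.1 libraries at the 8 desert regions with the largest called difference towards pDCs, among those with a mean count of at least 30 and no overlap (above the dotted line) and the 8 towards cDCs (below it), named by nearest gene and distance. By that rule cDC (blue) and pDC (red) libraries are apart in every region. pDC replicate 2 (red squares) lies between pDC replicate 1 and the cDC libraries in all 8 regions below the line and in all 8 above it.

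By nearest gene, the shares called lay around those of all regions (16.7%) and of all desert regions (20.0%), and differences between them were not tested. Of 376 tested regions nearest to haematopoietic regulators, 40 were higher in pDCs and 32 in cDCs (19.1% called), with a median log2 fold of 0.02. Of 111 nearest to dendritic and immune genes, 9 and 10 were (17.1%), and of 224 nearest to neural and developmental genes, 19 and 16 (15.6%). For the other 3437 these were 441 and 264 (20.5%). The first list spread over 415 regions beside 32 of its 101 genes, and Id2 alone had 54 of them.

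The gap between Id2 and Rnf144a on chromosome 12 held the most desert regions, 66 over 1211 kb. Of 58 tested, 9 were higher in cDCs and 2 in pDCs, with a median log2 fold of -0.17. The cDC-higher regions included chr12:25398751-25399010, 303 kb from Id2, with 42.7 and 38.4 CPM in cDCs and 14.8 and 21.0 in pDCs (log2 fold -1.19 ± 0.29, edgeR adjusted p = 0.00635). Nearer to Id2, chr12:25216751-25217160 went the other way, with 39.3 and 39.6 CPM in cDCs and 94.1 and 61.5 in pDCs (log2 fold 0.99 ± 0.24, edgeR adjusted p = 0.00583). No cDC call passed without cDC replicate 1, without cDC replicate 2 or by DESeq2, while the median log2 fold without either library was -0.16 and -0.21. Without pDC replicate 2 there were 12 cDC and 5 pDC calls and the median was -0.33. On the scale of the windows with at least 1000 input counts there were 2 cDC and 1 pDC calls.

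Between Cd83, a surface protein of mature dendritic cells, and Jarid2, a subunit of Polycomb complexes, lay 63 regions, of which 10 of 54 tested were higher in pDCs and 4 in cDCs. chr13:44231201-44231460, 428 kb from Cd83, had 7.87 and 5.94 CPM in cDCs and 42.6 and 31.8 in pDCs (log2 fold 2.43 ± 0.34, edgeR adjusted p = 6.53e-05). The strongest region of this gap, chr13:44538201-44538610, went the other way, with 90.7 and 89.5 CPM in cDCs and 53.8 and 56.4 in pDCs. Its log2 fold of -0.71 ± 0.21 (edgeR adjusted p = 0.0232) did not pass without either cDC replicate (adjusted p = 0.291 and 0.243) or by DESeq2 (adjusted p = 0.119). The pDC and cDC calls of the gap were 4 and 1 without cDC replicate 1 and 6 and 0 without cDC replicate 2. They were 4 and 1 when pDC replicate 1 was left out. Leaving out pDC replicate 2 gave 12 and 8.

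Both directions also met between Klf4, a zinc finger factor of monocytes and other cells, and Actl7b, where 7 of 44 tested regions were higher in pDCs and 3 in cDCs. chr4:55741301-55741760, 209 kb from Klf4, had 113 and 105 CPM in cDCs and 34.9 and 51.3 in pDCs (log2 fold -1.35 ± 0.23, edgeR adjusted p = 0.000336). Farther out, chr4:55817101-55817810 had 13.3 and 13.5 CPM in cDCs and 52.6 and 33.3 in pDCs (log2 fold 1.69 ± 0.30, edgeR adjusted p = 0.000573). This last region did not pass with counts summed over the region, and its log2 fold lay between 0.72 and 1.97 over 18 settings. Neither region passed on the scale of the windows with at least 1000 input counts. Without either cDC replicate the gap had 4 and 2 calls, without pDC replicate 2 it had 9 and 11, and on the scale of the windows with at least 1000 input counts 2 and 3. Between Nmbr and Cited2 only 4 of 43 tested regions were called, 2 each way, and its strongest region, chr10:16652451-16652810, did not pass (log2 fold -0.22 ± 0.22, edgeR adjusted p = 0.571). The pDC and cDC calls of that gap were 2 and 8 without pDC replicate 2 and 2 and 0 without pDC replicate 1. They were 0 and 1 without cDC replicate 1, 2 and 1 without cDC replicate 2 and 0 and 0 by DESeq2.

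**Figure D4:**
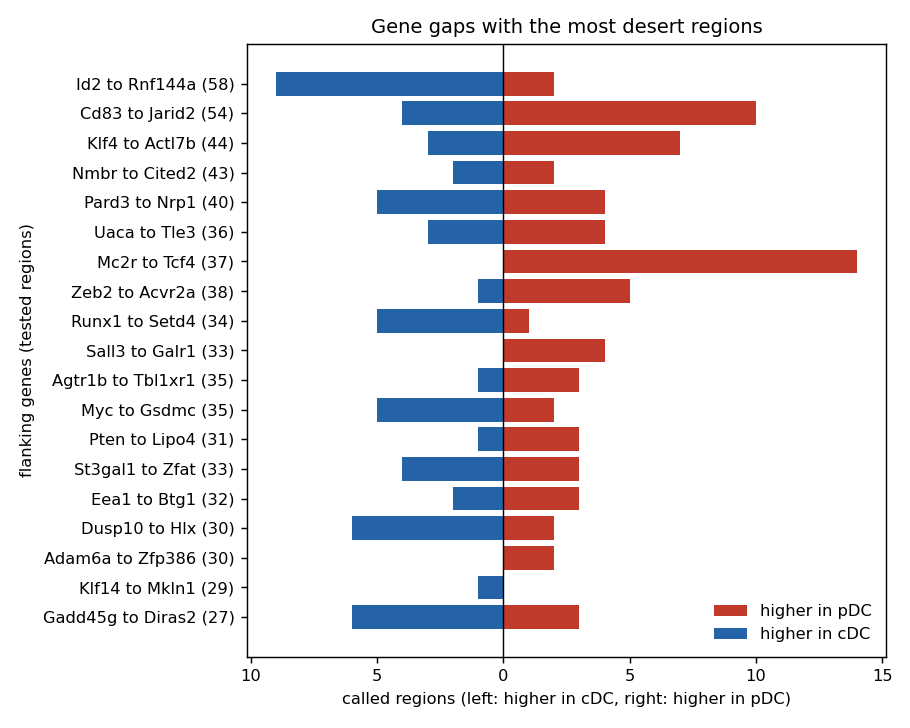
Called regions in 19 of the 20 gene gaps with the most desert regions, named by their flanking genes with the number of tested regions in brackets. Bars to the left count regions higher in cDCs and bars to the right regions higher in pDCs. The longest bars are 14 pDC calls between Mc2r and Tcf4, 10 between Cd83 and Jarid2 and 9 cDC calls between Id2 and Rnf144a.

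Regions near 3 more regulators were named for their adjusted p. Beside Bcl6, a transcriptional repressor of germinal centre B cells that cDCs also use, all 4 called regions of 11 tested were higher in cDCs. By DESeq2 there were 3, and at an unadjusted edgeR p below 0.05 another 3 regions were higher in pDCs. Of all tested desert regions 7.76% were called higher in cDCs by edgeR. The single direction depended on the setting. 1 pDC call stood beside the cDC calls with no filter, at a mean summit count of at least 30 and with the replicate number as a block. The same held when only regions above input were tested, with all 5 libraries in 1 fit, and without regions of at least 10 input counts. The median log2 fold of the gap was -0.46. It was -0.33 without pDC replicate 2 and -0.14 without pDC replicate 1. chr16:24115501-24115810, 127 kb from Bcl6, had 25.7 and 25.3 CPM in cDCs and 2.37 and 5.06 in pDCs (log2 fold -2.80 ± 0.44, edgeR adjusted p = 0.00016). chr16:24114501-24114810 and chr16:24102901-24103360 had log2 folds of -2.30 ± 0.36 and -1.82 ± 0.33. The last was -2.79 without pDC replicate 2 and -1.18 without pDC replicate 1.

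Beside Satb1, a chromatin organiser of lymphoid cells, a pair of neighbouring regions was higher in pDCs. chr17:52168651-52168910, 335 kb away, had 10.8 and 19.4 CPM in cDCs and 55.0 and 51.3 in pDCs (log2 fold 1.81 ± 0.29, edgeR adjusted p = 0.000214). Beside Sox4, an HMG-box factor of lymphoid progenitors, 6 of 15 tested regions were higher in pDCs and 2 in cDCs. These were 3 and 0 without cDC replicate 1, 2 and 0 without cDC replicate 2, and 3 and 0 by DESeq2. On the scale of the windows with at least 1000 input counts they were 0 and 3. Over all tested desert regions, edgeR called 12.3% higher in pDCs and 7.76% in cDCs. chr13:28687901-28688160 had 7.04 and 7.52 CPM in cDCs and 30.2 and 26.8 in pDCs (log2 fold 1.96 ± 0.35, edgeR adjusted p = 0.000488). On that scale of high-input windows neither the Satb1 nor the Sox4 region passed (edgeR adjusted p = 0.177 and 0.114).

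Beyond Myc, a growth regulator, chr15:62458051-62458210 lay 468 kb from the gene and past its lncRNA neighbour Pvt1, with 1.24 and 1.19 CPM in cDCs and 21.3 and 21.0 in pDCs. Its log2 fold of 4.05 ± 0.51 (edgeR adjusted p = 2.33e-05) stayed between 3.99 and 4.07 with 1 library left out. Farther along the same gap, towards Gsdmc, regions were higher in cDCs, as at chr15:63595651-63596010 with 39.3 and 47.9 CPM in cDCs and 5.92 and 19.5 in pDCs (log2 fold -1.83 ± 0.36, edgeR adjusted p = 0.00124). The gap had 2 pDC and 5 cDC calls among 35 tested regions. The cDC calls were 3 and 2 without cDC replicates 1 and 2, and 7 without pDC replicate 2.

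The gap between Mc2r and Tcf4 on chromosome 18, singled out after its values were seen, had 14 pDC calls and no cDC call among 37 tested regions. 1 region was higher in cDCs at an unadjusted edgeR p below 0.05, and DESeq2 gave 7 pDC calls and 0 cDC calls. Of all tested desert regions 12.3% were called higher in pDCs, and of all regions tested 9.33%. The median log2 fold of the gap was 0.66, against 0.06 for all tested desert regions. chr18:68715101-68715460 had 15.3 and 16.6 CPM in cDCs and 76.3 and 60.0 in pDCs (log2 fold 2.09 ± 0.26, edgeR adjusted p = 2.21e-05). chr18:69136101-69136360, 207 kb from Tcf4, had 18.6 and 16.2 CPM in cDCs and 42.0 and 38.3 in pDCs (log2 fold 1.21 ± 0.28, edgeR adjusted p = 0.00455). The other 13 called regions lay nearer to Mc2r, a melanocortin receptor gene, than to Tcf4. There were 6 pDC calls when either cDC replicate was left out, 10 when pDC replicate 1 was and 13 when pDC replicate 2 was, with no cDC call in any of these. On the scale of the windows with at least 1000 input counts 2 were left and the median was 0.13.

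**Figure D5:**
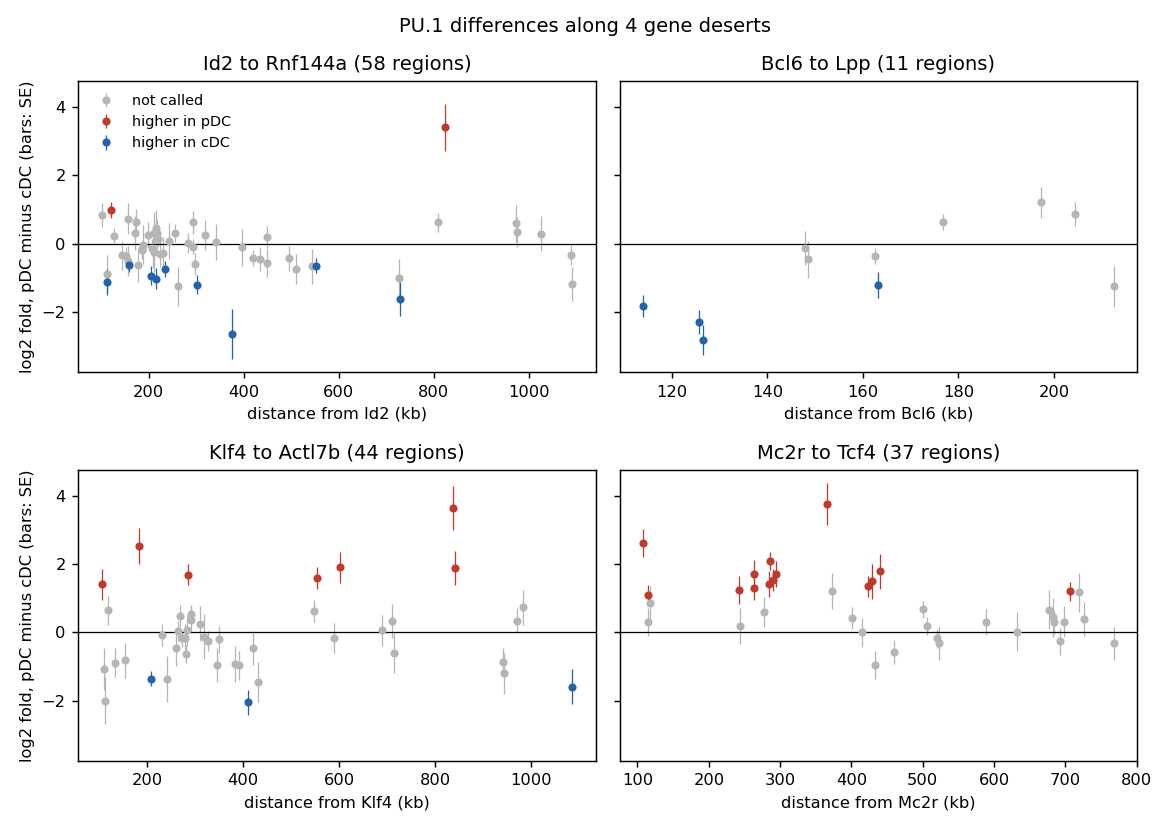
Log2 fold (vertical, pDC minus cDC, bars are SE) of every tested desert region in 4 gene gaps, against its distance in kb from the gene named on the axis. Red points are called higher in pDCs and blue points higher in cDCs. In the gap from Mc2r to Tcf4 all 14 called regions are above 0, beside Bcl6 the 4 called regions are below 0, and the gaps beside Id2 and Klf4 hold both.

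Called desert regions near each other mostly had the same direction. Of 106 neighbouring pairs of called regions at most 10 kb apart, 93 had the same direction (87.7%), and so did 113 of 169 pairs 10 to 50 kb apart (66.9%) and 97 of 142 pairs 50 to 200 kb apart (68.3%). The numbers of calls in each direction alone would give 52.5%. Outside deserts the shares were 81.9%, 64.8% and 57.5%, against 50.6%. Of 189 gaps with at least 2 called desert regions, 71 had only pDC calls, 35 only cDC calls and 83 both. These are descriptions, since neighbouring regions share their libraries and those close together may share reads.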

How the data were processed

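PU.1 and input libraries were single-end reads of 49 bp. The deposited values are raw counts per 10 bp window, with no normalisation, for 329996 windows whose counts over the 5 libraries summed to at least 33. Subread 1.4.4 and build mm10 are named per the submitters' processing notes, but the sources used here do not give their roles, the read extension, the filters or the choice of windows. Neighbouring windows can count the same read, and the sequencing depth is unknown. All 5 columns of the series' table equalled the samples' own files.

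From the counts, 146 windows of at least 1000 input counts were left out and windows at most 100 bp apart joined. Each region was represented by its summit window, so that a read counted once per region. Neighbouring regions may still share reads, since the read extension is not known. Regions were kept with filterByExpr at a minimum count of 10 and tested with edgeR 4.0.16 in R 4.3.3 (glmQLFit and glmQLFTest) on the 4 PU.1 libraries, with TMM factors, no covariate beside cell type, and p-values adjusted by Benjamini-Hochberg over all 60460 regions at 0.05. CPM are counts per TMM-scaled total of summit counts. The SE is the one implied by the F statistic. The biological coefficient of variation was 0.161. An exact permutation test of 2 against 2 libraries cannot go below 0.333, and none was run. All 5 libraries entered the test against input, scaled by their totals over windows. DESeq2 1.42.0 was an alternative, and others changed the scaling, filter, region value, samples, block, distance and gene set. The edgeR step was tested on simulated data.

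Replicates were compared first: over desert summits the mean chi-square per region was 1.66 for cDCs and 2.60 for pDCs, above the value near 1 of counting error, so none was a copy. Named regions are the 8 with the most signal, the 8 with the largest called log2 fold each way among those with a mean count of at least 30 and no overlap of cell types, the 5 farthest from genes, the 4 gaps with the most regions, up to 12 called beside genes of the first and second list below, the 3 with the most input, and those next to the distance limit. The gene lists, written from textbook knowledge, held 101 haematopoietic regulators, 110 dendritic and immune genes and 167 neural and developmental genes. Members, lists and tests were chosen with earlier results of these data known. 1 region named by this rule, and its gap, are not reported here. Gene spans had no exons. Sequence came only from RefSeq promoters, and that of other regions was not analysed here.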

Additional observations from a re-analysis of the deposited data

How the results depend on the processing

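With the replicate number as a block, 528 desert regions were higher in pDCs and 354 in cDCs. The deviations of the cDC pair and of the pDC pair had a correlation of 0.0206 over tested regions. This shows no common shift by replicate number, but cannot show whether libraries of the same number were made together. Regions higher in pDCs, 509 in the report, were 68 with library sizes from the windows of at least 1000 input counts, 185 by DESeq2, 287 against a minimum fold of 1.5, 182 with a mean summit count of at least 30, 331 when only regions above input were tested, and between 195 and 674 with 1 library left out. Regions higher in cDCs, 322 in the report, were 68 by DESeq2, 146 against the minimum fold, 147 at the higher count and between 96 and 588 with 1 library left out. These counts rest on unequal numbers of tested regions, 4148 in the report, 1190 at the higher count and 1850 above input. The shares called in deserts were 20.0%, 27.6% and 31.8%, against 16.7%, 24.0% and 26.7% of all regions. By DESeq2 they were 6.10% and 5.02%, and against the minimum fold 10.4% and 8.23%. The scale from windows of at least 1000 input counts moved the median log2 fold to -0.507 from 0.059. The cause was not tested. By construction the distance rule changed the members: at more than 50 kb there were 8134 regions with 895 pDC and 571 cDC calls, at more than 200 kb 2129 with 242 and 133, and with non-coding genes counted too 561 with 53 and 33. Above input, 183 regions were left in place of 1860 with library sizes outside those windows, and 1796 at 4-fold. No region called both in the report and under an alternative had opposite directions. The pDC libraries are the shallower side of each comparison, and low summits limit what could be called.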

Other observations

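Desert regions within 100 kb of immunoglobulin or T cell receptor segments, which the rule does not count as protein-coding genes, numbered 78. Of 70 tested, 9 were higher in pDCs and 2 in cDCs (edgeR, adjusted p below 0.05), which is 15.7% against 16.7% of all regions, and 14 of the 78 lay inside a segment's span. With distances also measured from these segments, an alternative chosen after seeing the data, 4576 regions were left, 500 higher in pDCs and 320 in cDCs.

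Called desert regions beside a pair of genes had 1 direction only, and these genes are named after their values were seen. This is not particular to them. Of 189 gaps with at least 2 called regions, 71 had only pDC calls and 35 only cDC calls. Beside Zeb2, 5 of 24 tested regions were called, and beside Mef2c 5 of 13, all higher in pDCs. By DESeq2 these calls were 0 and 2, and on the scale of the windows with at least 1000 input counts 0 and 1. The median log2 fold beside Zeb2 was 0.64. It was 0.49 without cDC replicate 1 and 0.63 without cDC replicate 2. The shares called were 20.0% of desert regions and 16.7% of all regions. Beside Rasgef1b, a gene for a Ras guanine nucleotide exchange factor, 6 of 14 tested regions were called and all were higher in cDCs, among them chr5:99415051-99415460 with 53.8 and 44.3 CPM in cDCs and 27.8 and 29.6 in pDCs. These calls were 0 by DESeq2, 0 without cDC replicate 1 or pDC replicate 1, 1 without cDC replicate 2 and 8 without pDC replicate 2. Beside Zmiz1, a gene for a transcriptional coactivator, 6 of 18 were called and all were higher in pDCs, among them chr14:25323651-25323960 with 21.1 and 21.8 CPM in cDCs and 77.5 and 50.6 in pDCs. These were 3 without cDC replicate 1, 4 without cDC replicate 2 and 4 by DESeq2. Leaving out either pDC library added 1 cDC call, and on the scale of the windows with at least 1000 input counts there were 0 pDC calls and 1 cDC call. At an unadjusted edgeR p below 0.05 the other direction had 0 regions beside Rasgef1b and 2 beside Zmiz1.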
